A study of Mus musculus with 4 samples.

Results

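Muribaculaceae are a family of Gram-negative anaerobes of the order Bacteroidales and one of the main bacterial families of the mouse gut, where they feed on plant and host polysaccharides. Many of its genera have few cultured members, and names such as CAG-485 or UBA7173 come from genome-based classification. All rows of the deposited composition table that carry the family name were summed by genus. This gave 8 members out of 315 genera, from 24 of 488 taxa: CAG-485, CAG-873, Duncaniella, Muribaculum, Paramuribaculum, UBA7173, UBA3263 and the reads with no genus name, called unclassified Muribaculaceae. The last is 1 taxon of the table and may hold several organisms. The table names taxa and gives no sequences, so none are shown.

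The V4 region of the 16S rRNA gene was sequenced from stool of wild-type C57BL/6J mice aged 8 to 12 weeks, at day 0 and day 4. Mice received 2.5 mg of vancomycin, ampicillin, neomycin, metronidazole or a mix of the 4 in 100 µl of phosphate-buffered saline (PBS), or 100 µl of PBS alone, by 1 of 3 routes: oral, intraperitoneal or intravenous. There were 2 doses a day for 3 days and 1 dose on day 4, and mice were killed 4 hours after it. Vancomycin and ampicillin block cell wall synthesis, neomycin blocks protein synthesis and is poorly absorbed from the gut, and metronidazole is activated in anaerobes and damages their DNA.

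At day 4 the PBS groups held 5 oral, 5 intraperitoneal and 6 intravenous samples. In the same order of routes there were 6, 5 and 6 samples of vancomycin, 5, 2 and 4 of ampicillin, 4, 3 and 6 of the mix, 4, 6 and 4 of neomycin and 6, 6 and 6 of metronidazole. Each antibiotic was compared with PBS of its own route, so the 5 comparisons of a route share their controls. Values are percent of the reads of a sample. They are shares: fewer bacteria of a genus and more bacteria of others cannot be told apart. A log2 change is the difference of group means of log2(percent + 0.01), which understates the change of rare genera, and was tested with limma over the 95 genera found in at least 20% of day 4 samples, all 8 members among them, with Benjamini-Hochberg adjusted p under 0.05 as the threshold. Errors of log2 changes are SE. Nothing in the labels says how mice were housed. The fit gave each genus 1 spread, estimated over all day 4 groups together. The limma p-values measure that pooled spread between these samples, not the spread of the 2 groups compared. An SE thus depends on the genus and the group sizes. For CAG-485 it was 1.44 with oral vancomycin and with oral metronidazole.

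Several libraries stood apart. Day 4 libraries held 30 to 153407 reads (median 23566), and 4 held under 1000: intraperitoneal mix replicate 3 (30 reads), intravenous mix replicate 5 (65), intraperitoneal neomycin replicate 4 (70) and oral mix replicate 2b (556). Taxa of a list of reagent, skin and food bacteria took 89.0% and 96.6% of reads in oral ampicillin replicates 3 and 5, and 93.4%, 96.0% and 68.3% in oral mix replicates 1, 2a and 2b. Intraperitoneal vancomycin replicates 1 and 5, and intravenous ampicillin replicates 3 and 4, were not told apart from sampling noise (chi-square per degree of freedom 1.06 and 1.29, p = 0.363 and 0.153 over taxa), and each pair was counted as 1 sample. Replicates 3 and 4 of oral and of intravenous metronidazole were also close (2.04 and 2.79, chi-square p = 4.34e-06 and 1.50e-09). These were told apart and counted as separate samples. Oral mix replicates 2a and 2b carry the same replicate number in the sheets of the 2 sequencing runs but different sample names, each with its own day 0 library, and were taken as 2 mice.

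Before treatment the family made up 48.9% ± 13.8 (SD, n = 107 libraries) of reads. CAG-485 was the largest member with 12.5% ± 4.77, followed by Duncaniella with 9.55% ± 3.57, unclassified Muribaculaceae with 7.90% ± 3.04 and Paramuribaculum with 6.76% ± 3.47. UBA7173 had 4.72% ± 4.95, Muribaculum 4.40% ± 1.89, UBA3263 2.28% ± 0.961 and CAG-873 0.813% ± 0.518. Neighbours in this order lay within 1 SD of each other except Muribaculum and UBA3263, and UBA3263 and CAG-873. The spread of UBA7173 came with shallow libraries and was 4.46% ± 2.21 over the 83 libraries of at least 1000 reads. Over those 83 libraries Muribaculum and UBA3263 varied most alike (Pearson r = 0.87 on the log2 scale) and CAG-485 and Paramuribaculum least alike (r = 0.13), a description of shares of 1 total.

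No difference between the 18 groups was detected in these genera at day 0. In a limma F test 0 of 8 members passed after adjustment, against 1.18% of 85 genera, and the unadjusted p was under 0.05 for 1 member (CAG-873, limma adjusted p = 0.260). In the 16 PBS mice with stool of both days 0 of 8 members passed, against 14.1% of 99 genera, and 2 had an unadjusted p under 0.05. CAG-873 went from 0.807% to 1.44%, higher at day 4 in 13 of 16 mice (limma adjusted p = 0.0747). Over all groups at day 0 CAG-873 was at 0 in 17 of 107 libraries, and in 0 of the 83 with at least 1000 reads. UBA7173 went from 4.47% to 6.88%, higher in 12 of 16 (limma adjusted p = 0.0778). Unadjusted p-values were not counted over all genera at day 0 or in PBS mice.

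Oral vancomycin left the family at 0% to 1.94% of reads (median 0.265%), against 43.8% to 76.0% in oral PBS. All 8 members fell, against 58.9% of all genera tested, and their median log2 change was -7.62 against -1.96 over all genera. CAG-485 ranged from 0% to 0.330% (median 0.0127%) in the treated samples and was at 12.7%, 13.8%, 12.0%, 12.8% and 6.55% in PBS, a log2 change of -8.51 ± 1.44 (limma adjusted p = 6.81e-07). For each member every treated sample lay below every PBS sample. Overlap with PBS was counted for the members and Prevotella alone, here and in later comparisons, so no share over all genera stands beside it. CAG-873 was at 0 in all 6 treated samples, at least 24.9-fold lower when 3 reads per library are taken as the floor. UBA7173 ranged from 0% to 0.202% (median 0.0225%) against 3.55% to 7.15%, a log2 change of -7.39 ± 1.35 (adjusted p = 3.01e-06).

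Oral ampicillin also lowered all 8 members, against 49.5% of all genera, again with no overlap with PBS as shares of all reads. In replicates 3 and 5 the reagent, skin and food list took 89.0% and 96.6% of reads, which lowers every other share. Overlap among their remaining reads was not examined. Paramuribaculum was at 0.634%, 0.0560%, 0.513%, 0% and 0.0642%, against 6.36% to 11.5% in PBS (log2 change -6.22 ± 1.21, limma adjusted p = 4.17e-05). UBA7173 was at 0.686%, 0.203%, 0.979%, 0.0765% and 0.201% and had the smallest change of the family (-4.25 ± 1.41, adjusted p = 0.00928). Without the 2 libraries that held mostly reagent, skin and food taxa, all 8 were called. Within run ok122, one of the 2 sequencing runs, which held 3 of the 5 treated samples and all PBS samples of the route, 6 were called.

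With the oral mix 7 of 8 members were lower, against 35.8% of all genera. Paramuribaculum was at 0.0833%, 0.167%, 0% and 0.347% (log2 change -6.56 ± 1.28, limma adjusted p = 6.35e-05). UBA7173 was at 0.467%, 0.157%, 1.08% and 3.37%, all below PBS as shares of all reads, and was not called (log2 change -2.99, adjusted p = 0.106). In 3 of the 4 libraries the reagent, skin and food list took over 50% of reads, which lowers every other share. Overlap with PBS among their remaining reads was not examined. The remaining sample had 17.2% of its reads in the family. The calls did not hold with it as the only treated sample, a fit too small to judge them. Without replicate 1 the count was 4, and without replicate 2a it was 3.

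**Figure D1:**
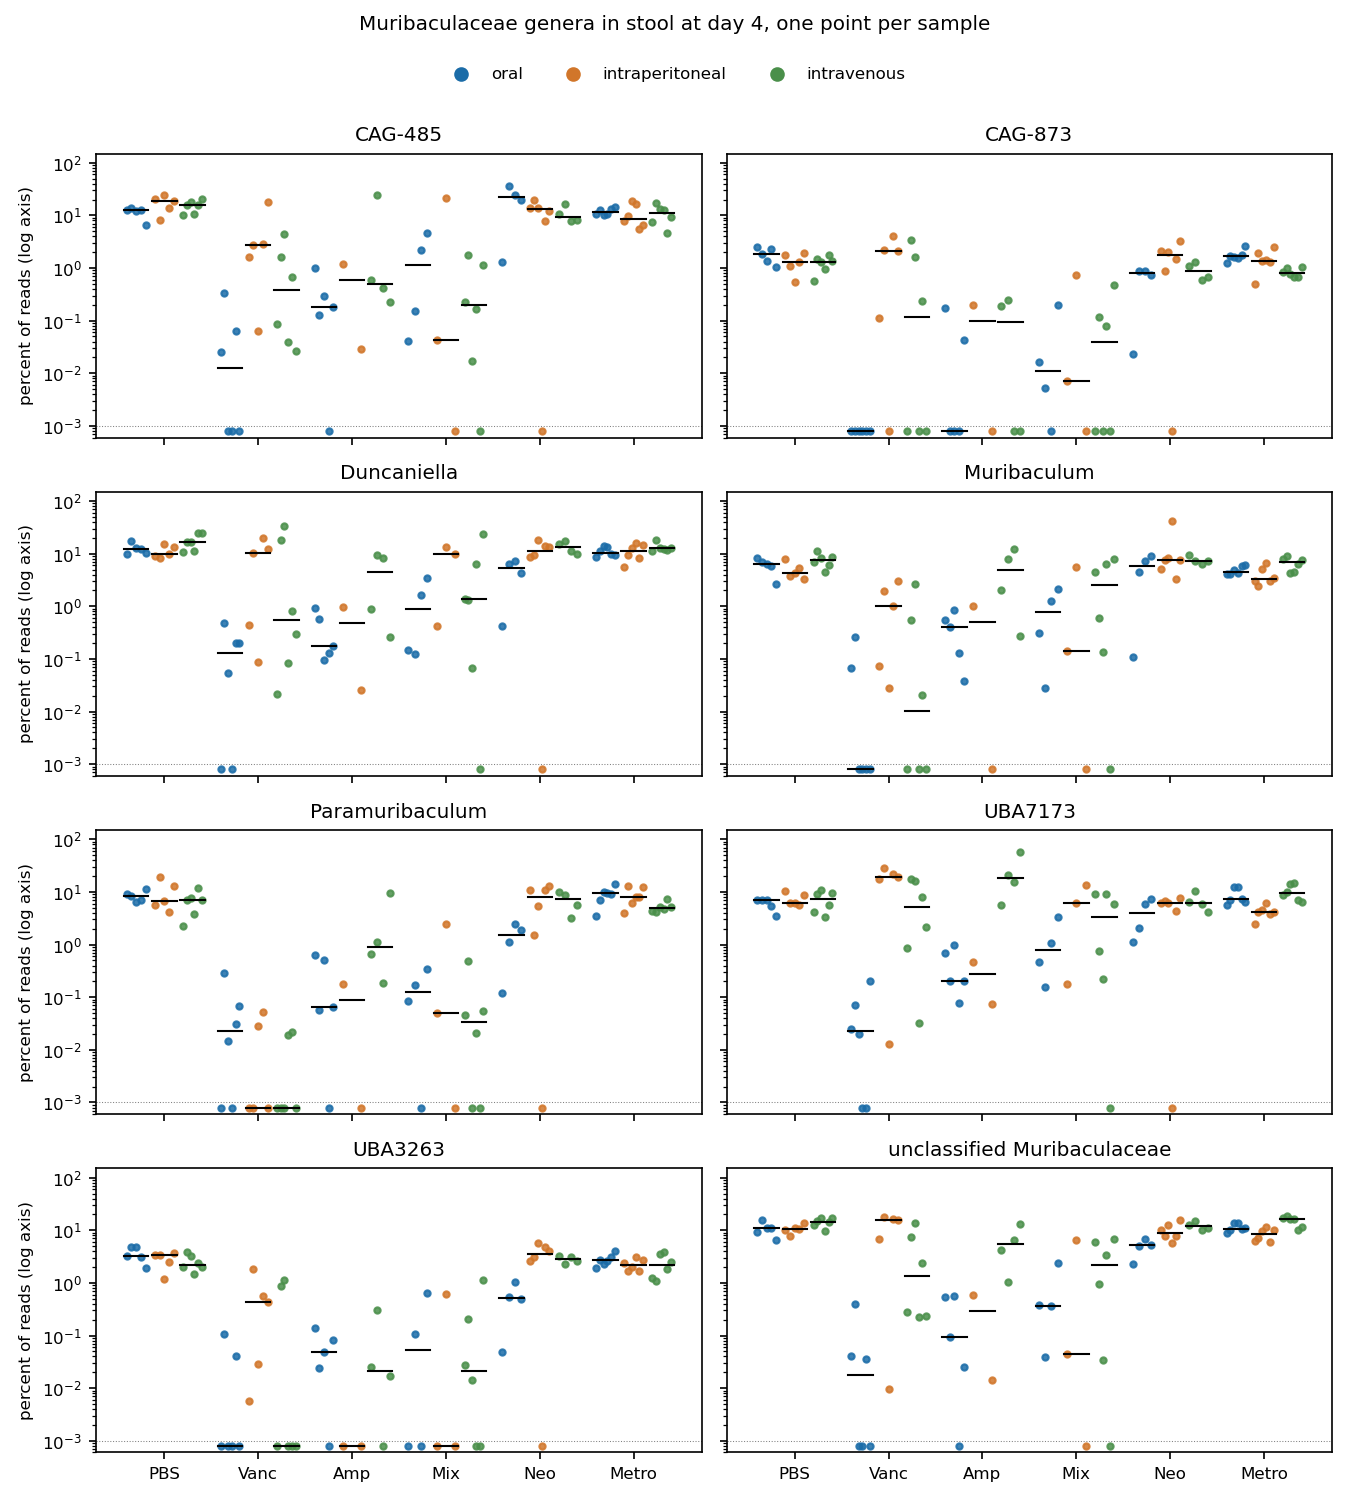
Percent of reads (log axis) of each Muribaculaceae genus in every day 4 sample, by antibiotic and by route; black bars are group medians, and points below the dotted line are samples at 0. As shares of all reads, reagent taxa included, all oral vancomycin and oral ampicillin samples lie below oral PBS in every genus. UBA7173 lies above the PBS range in 4 of 5 intraperitoneal vancomycin samples.

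With vancomycin into the peritoneum Paramuribaculum and UBA3263 fell, 2 of 8 members against 22.1% of all genera, a share near that background. Paramuribaculum was at 0% in 3 of 5 samples and at 0.0286% and 0.0522% in the others, against 4.19% to 18.9% in PBS (log2 change -8.79 ± 1.21, limma adjusted p = 1.65e-08). It was called with each sample left out in turn, with log2 changes from -9.22 to -8.49. UBA7173 was at 17.4%, 28.0%, 0.0127%, 22.2% and 19.5% and at 5.61% to 10.5% in PBS, so that 4 samples lay above the PBS range and 1 below it (-0.42 ± 1.41, adjusted p = 0.809).

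Replicate 3 was the low sample of that group, with 0.261% of reads in the family against 26.6% to 71.3% in the others. Without it Paramuribaculum was the member called, and the log2 change of UBA7173 reached 1.56 without passing the threshold (adjusted p at least 0.435 with any 1 sample left out). The count was also 1 without replicate 1 (counted with 5) and 4 without replicate 6.

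Vancomycin into a vein lowered 7 of 8 members, against 37.9% of all genera, in a group whose family share ran from 0.404% to 73.5% (median 7.47%). Paramuribaculum ranged from 0% to 0.0215% (median 0%) against 2.27% to 11.7% (median 7.03%) in PBS (log2 change -8.65 ± 1.11, limma adjusted p = 1.19e-09). Muribaculum ranged from 0% to 2.67% (median 0.0104%) against 4.55% to 11.2% (-6.94 ± 1.26, adjusted p = 1.19e-05). Neither overlapped PBS. UBA7173 ranged from 0.0329% to 17.7% (median 5.12%), with 3 samples below the PBS range of 3.30% to 10.9% and 2 above it, and was not called (-1.44 ± 1.29, adjusted p = 0.381). Without replicate 1, 4 members were called, and within run ok122, with 3 treated and 3 PBS samples, 2 were.

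Ampicillin into a vein lowered CAG-485, CAG-873 and UBA3263, 3 of 8 members against 36.8% of all genera, a share near that background. UBA3263 was at 0.0249%, 0.304%, 0% and 0.0168%, against 1.47% to 3.89% in PBS (log2 change -5.84 ± 1.31, limma adjusted p = 0.000295). CAG-485 was at 0.590%, 24.7%, 0.424% and 0.225%, against 10.3% to 20.04% in PBS, so that replicate 2 lay above PBS and the others below (-3.72 ± 1.53, adjusted p = 0.0422). UBA7173 was at 5.76%, 21.1%, 15.6% and 57.0%, above the PBS range in 3 of 4 samples and not called (1.49 ± 1.44, adjusted p = 0.385).

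Ampicillin into the peritoneum had 2 samples, with 4.55% and 0.143% of reads in the family against 53.0% to 77.1% in PBS. All 8 members were lower, against 43.2% of all genera, and both samples lay below PBS for each. UBA3263 was at 0 in both, at least 91.6-fold lower. Paramuribaculum was at 0.181% and 0% (log2 change -7.58 ± 1.60, limma adjusted p = 0.000420). Replicate 2, the sample of run SB1, carried the count: without it, which is also the fit within run ok122, 1 member was called.

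The mix into a vein lowered 7 of 8 members, against 37.9% of all genera. Paramuribaculum ranged from 0% to 0.481% (median 0.0333%), below all PBS samples (log2 change -7.12 ± 1.11, limma adjusted p = 6.52e-07). UBA7173 ranged from 0% to 9.12% (median 3.32%), overlapped PBS and was not called (-2.72 ± 1.29, adjusted p = 0.0725). The 65 reads of replicate 5 held none of the family.

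The mix into the peritoneum lowered 6 of 8 members, against 29.5% of all genera, over 3 unlike samples. Replicate 1 held 0.891% of reads in the family and replicate 2 held 56.6%, while replicate 3 held 23.3% of its 30 reads. UBA3263 was at 0%, 0.614% and 0% against 1.18% to 3.75% in PBS (log2 change -6.08 ± 1.48, limma adjusted p = 0.00390). Duncaniella and UBA7173 were not called (adjusted p = 0.531 and 0.470). Without replicate 3, the sample of run SB1, 0 members were called, and without replicate 1 the count was 1.

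Oral neomycin had 0 of 8 members called, against 16.8% of all genera. An unadjusted limma p under 0.05 was found for 2 members, against 40 of the 95 genera tested. Paramuribaculum was at 0.118%, 1.12%, 2.50% and 1.88%, all below PBS (log2 change -3.18 ± 1.28, limma adjusted p = 0.0607). UBA3263 was at 0.0489%, 0.541%, 1.06% and 0.494%, also below PBS (-3.22 ± 1.36, adjusted p = 0.0759). CAG-485 was at 1.30%, 35.5%, 24.6% and 19.99%, above the PBS range in 3 of 4 samples (0.13 ± 1.59, adjusted p = 0.974). Paramuribaculum and UBA3263 passed when libraries under 1000 reads were left out. Those libraries belong to other groups and act through the shared spread alone. Without replicate 3 the count was 1.

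By injection neomycin had 0 of 8 members called into the peritoneum, against 0% of all genera, and 0 of 8 into a vein, against 1.05%. Metronidazole had 0 of 8 called by mouth, against 2.11% of all genera, 0 of 8 into the peritoneum, against 0%, and 0 of 8 into a vein, against 2.11%. In these 5 comparisons limma gave 0 members an unadjusted p under 0.05. Of the 95 genera tested, 7 and 8 had one with intraperitoneal and intravenous neomycin. With oral, intraperitoneal and intravenous metronidazole 7, 12 and 9 had one. The largest metronidazole change of a member was that of UBA7173 into the peritoneum, which ranged from 2.45% to 6.25% (median 4.14%) and lay below PBS in 5 of 6 samples (log2 change -0.83 ± 1.35, limma adjusted p = 0.918). In all 15 comparisons 0 members were called higher, against 0 to 7 of the 95 genera tested in each.

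**Figure D2:**
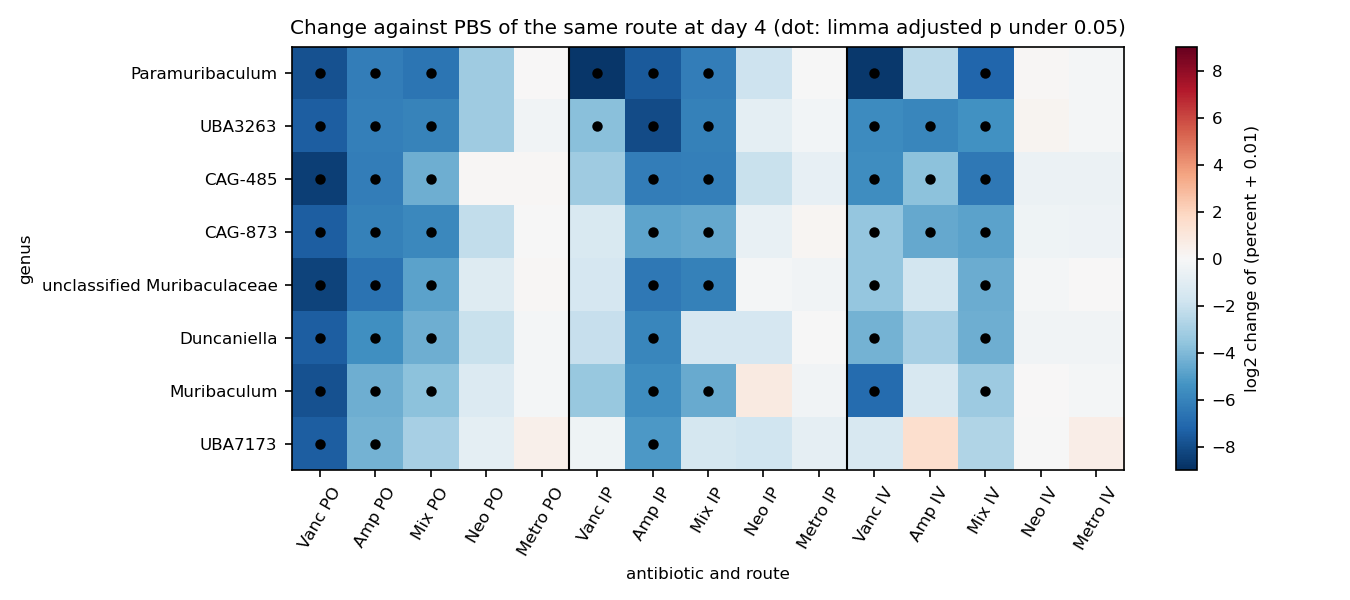
Log2 change of (percent + 0.01) against PBS of the same route at day 4 for each genus and each of the 15 antibiotic and route combinations; a dot marks a limma adjusted p under 0.05. UBA7173 has 3 dots and UBA3263 has 9, and no dot lies in a neomycin or metronidazole column.

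Routes of 1 antibiotic were compared by the difference of their log2 changes. Of 120 such tests over the members 4 were called, all for vancomycin. UBA7173 fell more by mouth than into the peritoneum (difference -6.97 ± 1.96, limma adjusted p = 0.0144), as did unclassified Muribaculaceae (-6.84 ± 1.87, adjusted p = 0.0143) and CAG-873 (-6.04 ± 1.82, adjusted p = 0.0210), 3 of 8 members against 10.5% of all genera. UBA7173 also fell more by mouth than into a vein (-5.95 ± 1.87, adjusted p = 0.0214), 1 of 8 members against 5.26% of all genera. For Paramuribaculum the same differences were 0.97 ± 1.68 and 0.84 ± 1.60, neither called. The count of 4 was 11 without intraperitoneal vancomycin replicate 3, 8 without intraperitoneal neomycin replicate 4 and 7 without oral vancomycin replicate 2.

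Ranked by mean log2 change over the 15 comparisons, Paramuribaculum came first at -4.44, with 8 comparisons in which it was called lower. UBA3263 followed at -3.94 (9 comparisons), CAG-485 at -3.60 (8), CAG-873 at -3.11 (8) and unclassified Muribaculaceae at -3.02 (7). Duncaniella at -2.85 (6) and Muribaculum at -2.81 (7) were next, and UBA7173 was last at -1.79 (3). No 2 neighbours in this order differed past the threshold. In a two-sided permutation test of the difference between 2 members (100000 permutations of samples within route), 0 of 28 pairs passed after adjustment and 10 had an unadjusted p under 0.05. The smallest adjusted p was 0.0523, for UBA7173 against UBA3263, Paramuribaculum and CAG-485, which differed from it by 2.15, 2.64 and 1.81. With 1 sample left out the count of pairs was 0 to 3, and it was 3 for 15 of the 89 samples. These runs used fewer permutations, and the 3 pairs lay close to the threshold. How far resampling alone moved the count was not tested.

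A fixed pseudocount limits how far a rare genus can fall, and CAG-873 averaged 1.45% over the PBS groups against 14.6% for CAG-485. With a pseudocount of 1% of each genus's own PBS level, Paramuribaculum (-3.46) and UBA3263 (-3.37) stayed first and UBA7173 (-1.52) last, while CAG-873 (-2.91) and CAG-485 (-2.86) changed places. In the 9 comparisons with a member called, which were chosen by their outcome, the median share of the PBS level left was 1.52% for Paramuribaculum and 58.9% for UBA7173.

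**Figure D3:**
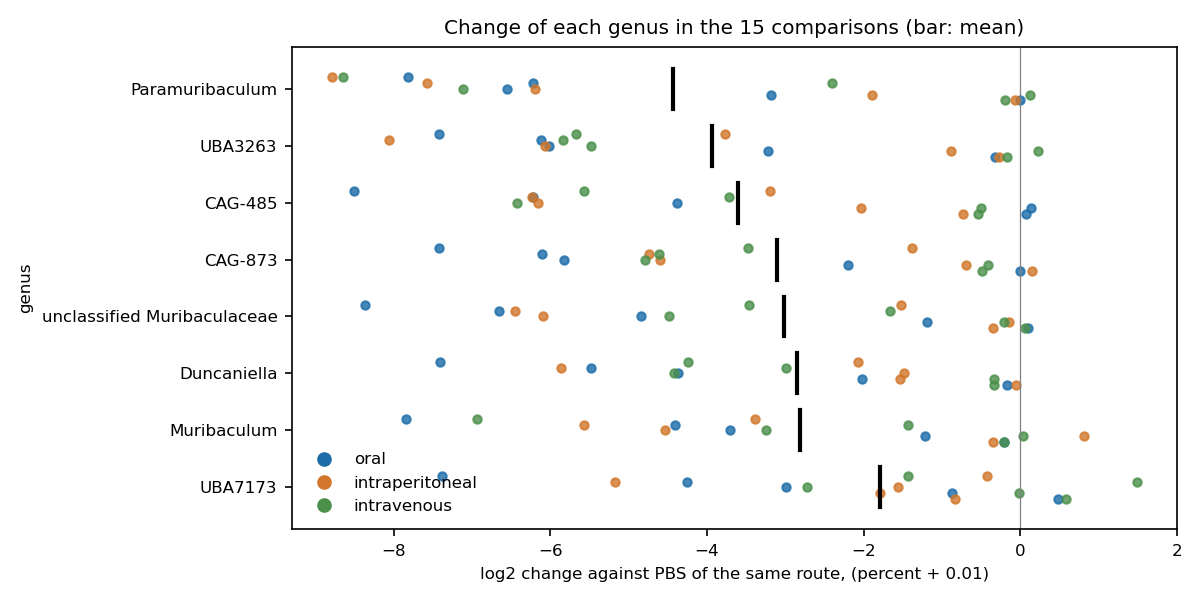
Log2 change of (percent + 0.01) against PBS for each genus in the 15 comparisons, 1 point per antibiotic and route, with the mean as a black bar. Means run from -4.44 for Paramuribaculum to -1.79 for UBA7173, and the points of all genera overlap.

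The make-up of the family is described, with no test, over samples with at least 100 reads of the family, a minimum that left out 12 samples, 5 of them of oral vancomycin. UBA7173 took 9.85% ± 1.49 (SD, n = 5), 11.4% ± 2.27 (n = 5) and 9.56% ± 2.50 (n = 6) of family reads in oral, intraperitoneal and intravenous PBS. It took 42.3% ± 16.8 (n = 4) with intraperitoneal vancomycin, 46.7% ± 28.9 (n = 6) with intravenous vancomycin and 44.7% ± 17.6 (n = 4) with intravenous ampicillin. It took 29.8% ± 16.3 (n = 5) with the intravenous mix, 24.0% ± 7.24 (n = 3) with the oral mix, 20.7% ± 7.71 (n = 4) with oral ampicillin and 15.3% ± 6.32 (n = 2) with the intraperitoneal mix. In the only sample of intraperitoneal ampicillin and of oral vancomycin with enough reads it took 10.3% and 3.67%. All 4 intravenous ampicillin samples and the 4 intraperitoneal vancomycin samples with enough reads lay above the PBS samples of their route. Intraperitoneal vancomycin replicate 3, left out with 82 family reads, lay below them, with UBA7173 at 4.88% of these reads (4 reads). With oral, intraperitoneal and intravenous neomycin it took 12.5% ± 7.25 (n = 4), 9.75% ± 1.62 (n = 5) and 10.8% ± 2.26 (n = 4). UBA7173 was the largest member in 16 of the 43 samples of vancomycin, ampicillin, the mix or neomycin. None of these 16 was a neomycin sample. It was the largest in none of the 16 PBS and 18 metronidazole samples. With oral neomycin CAG-485 took 43.0% ± 16.1 (n = 4), against 18.9% ± 2.55 in oral PBS.

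**Figure D4:**
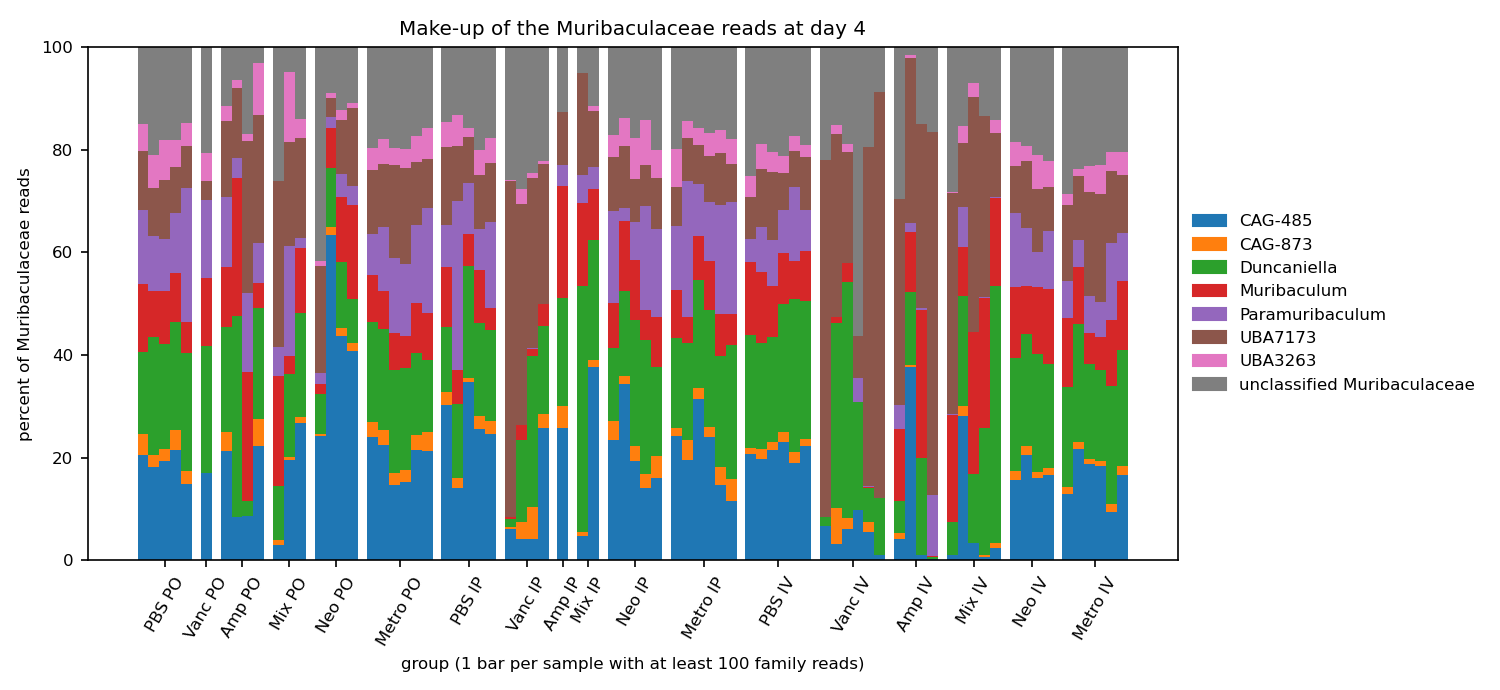
Share of each genus in the Muribaculaceae reads (percent) of day 4 samples with at least 100 family reads, by antibiotic and route. UBA7173 takes 27.3% to 65.6% in the 4 intraperitoneal vancomycin samples shown and 9.01% to 15.1% in intraperitoneal PBS.

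Single taxa were fitted in the same way over 133 taxa, 19 of them of the family, a step added after the genus values had been seen. With intraperitoneal vancomycin 8 of 19 family taxa fell, against 21.8% of all taxa. CAG-485 sp002493045, the largest taxon of its genus, was at 0%, 0.119%, 0.0381%, 0.0565% and 0.0436%, against 4.06% to 21.7% in PBS (log2 change -8.06 ± 1.40, limma adjusted p = 4.47e-06). CAG-485 sp002362485 was at 1.32%, 2.32%, 0.0254%, 2.18% and 18.1%, against 0.828% to 4.45% (-0.68 ± 1.28, adjusted p = 0.683). The first lay below all PBS samples and the second overlapped them.

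With oral neomycin 5 of 19 family taxa fell, against 16.5% of all taxa. CAG-485 sp002493045 was at 0.982%, 35.3%, 24.0% and 19.8%, against 2.68% to 10.2% in PBS (log2 change 0.64 ± 1.49, limma adjusted p = 0.743). CAG-485 sp002362485 fell and was at 0.322%, 0.165%, 0.529% and 0.130%, against 1.81% to 4.00% (-3.54 ± 1.35, adjusted p = 0.0469). Muribaculum intestinale fell to 0.125% from 2.25% (-4.25 ± 1.33, adjusted p = 0.0151), while Muribaculum gordoncarteri averaged 3.80% against 2.13% (-0.98 ± 1.52, adjusted p = 0.596), its log2 change and its means differing in sign because replicate 1 was at 0.

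With intravenous ampicillin 12 of 19 family taxa fell, against 36.1% of all taxa. Paramuribaculum intestinale was at 0 in all 4 samples against 1.70% to 4.36% in PBS. Paramuribaculum sp001689565 was at 0.631%, 0.690%, 0.189% and 9.58%, against 0.135% to 2.16% (log2 change 0.53 ± 0.99, limma adjusted p = 0.643). Duncaniella muris fell to 0.0151% from 2.38% (-7.05 ± 1.49, adjusted p = 0.000214), while Duncaniella dubosii averaged 4.56% against 8.46% (-2.12 ± 1.56, adjusted p = 0.246). UBA7173 sp002491305 averaged 16.4% against 5.27% and UBA7173 sp004102805 8.45% against 1.73%, neither called (adjusted p = 0.974 and 0.170).

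With intravenous vancomycin 17 of 19 family taxa fell, against 45.9% of all taxa. The other two were UBA7173 sp002491305, which averaged 6.86% against 5.27% in PBS (log2 change -1.10 ± 1.37, limma adjusted p = 0.516), and Duncaniella muris, which averaged 4.69% against 2.38% (-2.10 ± 1.33, adjusted p = 0.191). Both log2 changes were below 0 although the means were above PBS.

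The ratio of 2 species of a genus was tested itself, for the 9 pairs of species above 1% in PBS in all 15 comparisons, with a two-sided exact permutation test. Of 135 tests 30 had an unadjusted p under 0.05 and 0 passed after adjustment, with 0.0731 as the smallest adjusted p. Duncaniella pairs had this value with intravenous vancomycin and with intravenous metronidazole, where no member was called (exact p = 0.00216 each). Duncaniella muris over Duncaniella sp001689575 changed by 4.14 and 1.65 in these 2 groups. Duncaniella dubosii over Duncaniella muris changed by -1.90 with intravenous metronidazole. For CAG-485 sp002493045 over CAG-485 sp002362485 the log2 ratio changed by -7.38 with intraperitoneal vancomycin (exact p = 0.0159, adjusted p = 0.119), by -4.39 with intravenous vancomycin (exact p = 0.00649, adjusted p = 0.0918) and by 4.17 with oral neomycin (exact p = 0.0238, adjusted p = 0.140). For Paramuribaculum intestinale over Paramuribaculum sp001689565 it changed by -8.56 with intravenous ampicillin (exact p = 0.00476, adjusted p = 0.0918).

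**Figure D5:**
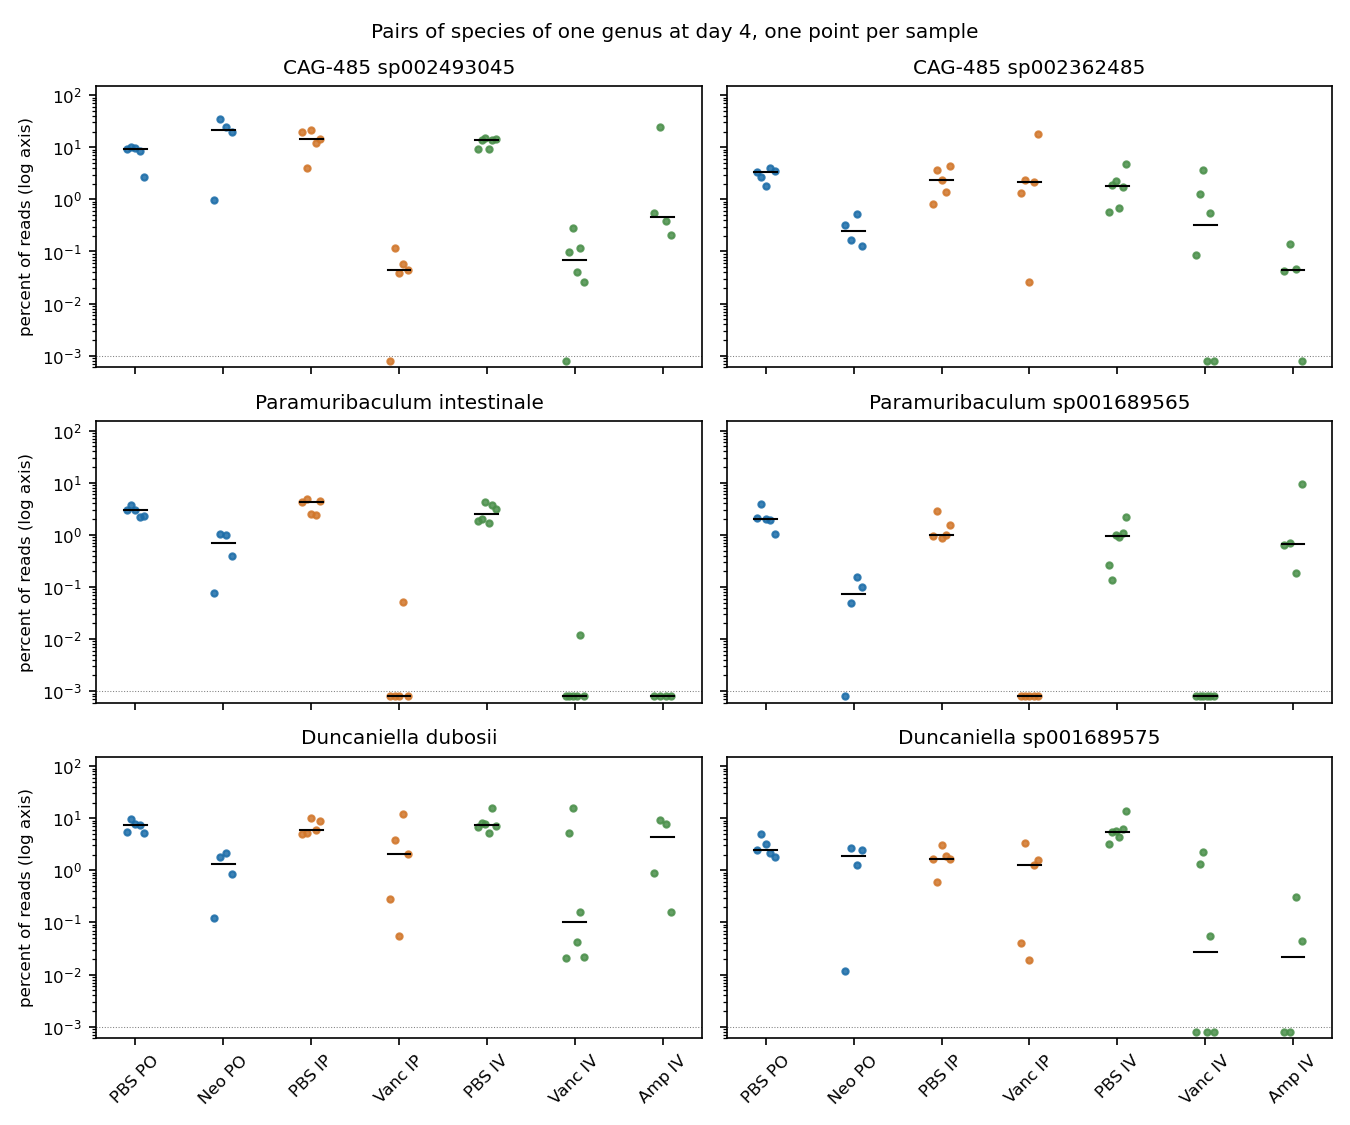
Percent of reads (log axis) of pairs of species of 1 genus in day 4 samples of selected groups and of PBS; black bars are group medians, and points below the dotted line are samples at 0. With intraperitoneal vancomycin CAG-485 sp002493045 is at 0.119% or less in all samples, and CAG-485 sp002362485 reaches 18.1%.

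Other genera of Bacteroidales moved in part with the family. Of the 9 tested, 6 were lower and 0 higher with oral vancomycin, where 58.9% of all genera were lower. With oral neomycin 1 was lower and 3 higher, against 16.8% of all genera lower. With intravenous ampicillin 5 were lower and 3 higher, against 36.8% lower. With intravenous vancomycin 3 were lower and 2 higher, against 37.9% lower. Their median log2 change there was -0.18, and that of the members was -4.90. Parabacteroides_B_862066, named after its values were seen, was higher with intravenous vancomycin (log2 change 8.65, limma adjusted p = 2.06e-07), where 7 members of the family were lower. Prevotella, the most abundant other genus of the order, was lower in all 3 oral groups of vancomycin, ampicillin and the mix, in intraperitoneal and intravenous vancomycin and in intraperitoneal and intravenous ampicillin. Over the 89 day 4 samples the genera whose log2 percent was most like that of the family were Dysosmobacter (Pearson r = 0.72, Spearman rho = 0.55), unclassified Oscillospiraceae_88309 (r = 0.71, rho = 0.61) and Prevotella (r = 0.70, rho = 0.42). Over the 16 PBS samples alone the values of r were -0.45, -0.37 and -0.77, and all are shares of 1 total in groups that differ in treatment.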

How the data were processed

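The deposited composition table holds a signal that the authors scaled to 100000 per library; the V4 amplification is per the labels' protocols, and the tools for read filtering, taxonomy and scaling are not stated there. Antibiotic, route, day and replicate came from the sample sheets the authors deposited. Empty cells (11.6%) were read as 0. Depth was recovered as the smallest total that makes all values of a library whole, and is a lower limit; 24 day 0 libraries held under 1000 reads. No count model was fitted. Levels of 89 day 4 samples were fitted with limma 3.58.1 (R 4.3.3), 1 mean per group and a variance trend. Permutation tests used numpy 2.4.6, and chi-square p-values and Spearman correlations used scipy 1.17.1. Scripts were tested on simulated data. The text names all members, Prevotella, the 3 genera most like the family, and taxa that lead a genus or exceed 1% under an antibiotic. The rule for near-identical libraries was set after values were seen, and the members and lists were chosen with earlier results of these data known. Floors of 3 reads cover counting error only. Alternatives included other pseudocounts, filters, depths, runs, a centred log ratio, within-mouse changes and left-out samples.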

Additional observations from a re-analysis of the deposited data

Results flagged for a closer look

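Each group of 4 to 10 day 4 samples was searched for a highest or lowest sample far from the rest (Dixon's ratio, 95% critical value), on percent and on log2 values. Of 143 combinations of group and genus or family total, 26 stood out on percent and 15 on log2, 36 on either and 5 on both; chance gives about 1 in 20 on each scale.

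With oral vancomycin, replicate 2 was the high sample for CAG-485 (0.330%), Muribaculum (0.258%), Paramuribaculum (0.294%), unclassified Muribaculaceae (0.401%) and the family (1.94%), and replicate 6 for UBA7173 (0.202%). With oral ampicillin, replicate 1 was high for CAG-873 (0.174%). With the oral mix, replicate 3, the library with few reagent taxa, was high for CAG-873 (0.199%), UBA3263 (0.637%) and unclassified Muribaculaceae (2.40%). With oral neomycin, replicate 1 was low for CAG-873 (0.0230%), Muribaculum (0.107%) and the family (5.39%). In oral PBS, replicate 5 was low for CAG-485 (6.55%).

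With intraperitoneal vancomycin, replicate 3 was low for UBA7173 (0.0127%), unclassified Muribaculaceae (0.00954%) and the family (0.261%), and replicate 6 was high for CAG-485 (18.3%). With intraperitoneal neomycin, replicate 4, of 70 reads, was at 0% for CAG-485, CAG-873, Duncaniella, Paramuribaculum, UBA7173 and UBA3263 and at 41.4% for Muribaculum.

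With intravenous vancomycin, replicate 3 was high for CAG-485 (4.42%) and Muribaculum (2.67%). With intravenous ampicillin, replicate 2 was high for CAG-485 (24.7%) and UBA3263 (0.304%), and replicate 5 for Paramuribaculum (9.58%). With the intravenous mix, replicate 6 was high for CAG-873 (0.472%), Duncaniella (23.3%) and UBA3263 (1.13%), and replicate 2 for Paramuribaculum (0.481%). With intravenous metronidazole, replicate 2 was high for Duncaniella (18.4%) and replicate 5 for Paramuribaculum (7.43%).

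The effect of vancomycin differed between routes by limma's test of the difference of log2 changes. Oral minus intraperitoneal was -6.97 for UBA7173, -6.84 for unclassified Muribaculaceae and -6.04 for CAG-873, and oral minus intravenous was -5.95 for UBA7173.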

How the results depend on the processing

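No called member changed sign in any setting run; over single members and settings 2632 outcomes kept their side of the threshold, 144 lost a call, 30 gained one and 98 uncalled changes switched sign. Counts of members lower that moved by over 1.5 times are given here, with the cause not tested. Oral mix (7): 4 with a pseudocount of 0.001%, 3 without reagent, skin, food and unassigned taxa, 3 with a centred log ratio, 0 without libraries over 50% reagent taxa (added after seeing the data; 1 sample left). Oral neomycin (0): 2 with a pseudocount of 0.1%, without libraries under 1000 reads, or with only the 2 groups in the fit, and 1 with genera present in 50% of samples or libraries thinned to 1000 reads. Intraperitoneal vancomycin (2): 4 with a pseudocount of 0.1% or without shallow libraries, and 1 with a pseudocount of 0.001%, a centred log ratio, only the 2 groups, or within-mouse changes. Intraperitoneal ampicillin (8): 1 in run ok122, 4 with a centred log ratio or within-mouse changes. Intraperitoneal mix (6): 1 thinned, 2 without shallow libraries, 0 in run ok122 or with only the 2 groups. Intravenous vancomycin (7): 2 in run ok122, 4 with a centred log ratio. Intravenous ampicillin (3): 1 with within-mouse changes. Route differences (4): 8 with a pseudocount of 0.001%, thinned or with a centred log ratio, 2 without the filter, 9 at 50% presence, 11 without shallow libraries, 10 within mouse. Pairs in the order (0): 7 with a pseudocount of 0.1%, 4 without shallow libraries, 3 with all libraries separate, 11 over the called comparisons alone. PBS mice (0): 2 with a pseudocount of 0.1%.

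With 1 sample left out, counts ran from 8 to 8 for oral vancomycin and oral ampicillin, 3 to 7 for the oral mix, 0 to 1 for oral neomycin, 1 to 4, 1 to 8 and 0 to 6 for intraperitoneal vancomycin, ampicillin and mix, 4 to 7, 2 to 3 and 5 to 8 for the same intravenous groups, 3 to 11 for route differences, 0 to 3 for pairs in the order and 0 to 1 for PBS mice; a group left with 1 sample is assumed to vary like the others. Replicate numbers did not pair the samples. Over all groups of a route the median correlation of deviations from the group mean was -0.0069 for samples with the same number and -0.0025 for other numbers. Of the 68 same-numbered pairs of an antibiotic and a PBS sample 23 correlated over 0.1. With the replicate block the count for intraperitoneal vancomycin was 3 and no other count moved. The planned edgeR alternative was not run, since the values are a scaled signal. Among day 4 libraries depth limits the 4 under 1000 reads most, and at day 0 it limits the 24 under 1000 reads.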
